A study of Mus musculus with 8 samples.

Results

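The 32 genes described here code for proteins of fibroblasts and of the interstitial matrix, the glycoproteins and proteoglycans that fill the connective tissue around the milk ducts. They were chosen by symbol, with earlier results of these data known, and found by Entrez identifier. All 32 were present among the 27164 genes of the deposited tables. All 32 also passed the filter on low counts, among 16526 genes that did. RNA was sequenced from basal cells of the mammary gland, sorted from 10-week-old female C57BL/6 mice with the Lgr5-GFP-IRES-CreERT2 allele, which places green fluorescent protein under the Lgr5 locus. All 4 populations carried this allele, and none was treated. They were sorted by Lgr5 (GFP) and by the tetraspanin Tspan8 (T8) into Lgr5+T8hi and Lgr5-T8hi cells and Lgr5+T8- and Lgr5-T8- cells, with 2 libraries each, 1 in each of 2 batches. Whether both libraries of a population came from different mice is not in the labels, so the p-values speak of the spread among these libraries, which may be technical.

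Fibroblasts secrete collagen and the glycoproteins that organise it. Small leucine-rich proteoglycans such as decorin bind collagen fibrils and set their thickness and spacing, fibrillins and fibulins build the microfibrils and elastic fibres, and lysyl oxidases crosslink both. In the mammary gland this matrix lies outside the basement membrane, against which the basal (myoepithelial) cells sit, and basal cells also make some matrix proteins themselves.

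Levels are counts per 1000000 counts (CPM), with library sizes scaled by edgeR's TMM method, and pairs of values stand for batch 1 and batch 2 in that order. Libraries held 24571300 to 38384875 counts, and a count of 0 would have allowed up to 0.0782 to 0.122 CPM, counting error only. The lowest raw count of any member was 10, for Mfap4 in a Lgr5-T8- library. Tspan8 stood at 289 and 261 CPM in Lgr5+T8hi cells, 167 and 150 CPM in Lgr5-T8hi cells, 10.6 and 6.82 CPM in Lgr5+T8- cells and 4.36 and 3.16 CPM in Lgr5-T8- cells. Lgr5 stood at 174 and 193 CPM in Lgr5+T8hi cells, 185 and 212 CPM in Lgr5+T8- cells, 119 and 129 CPM in Lgr5-T8hi cells and 58.3 and 50.5 CPM in Lgr5-T8- cells. The sort genes followed their labels. Lgr5 transcript was still present in the Lgr5- sorts, more so with Tspan8, and Tspan8 was higher in the Lgr5+ sort of either Tspan8 state. The basal keratins Krt5 and Krt14 were abundant in all 8 libraries (2105 to 2753 and 3707 to 6235 CPM). Pdgfra, the platelet-derived growth factor receptor that marks fibroblasts, had 6.42 to 16.7 CPM.

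Between genes, levels were compared as reads per kilobase of the deposited gene length per 1000000 counts (RPKM). Member levels differed over a wide range, with Postn at 770 RPKM on average and Dpp4 at 0.505. The 10 most abundant, Postn, Bgn, Gsn, Mgp, Prelp, Dcn, Fbln2, Fmod, Fbn1 and Fbln1, stood at 15.2 RPKM or more, and the other 22 at 14.3 (Fn1) or less. This division at 10 genes was made after the values had been seen and is used only to describe them.

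The common pattern of the members was taken as the median, in each population, of their mean log2(CPM + 1) after centring each gene on its own mean. It stood at 0.76 in Lgr5+T8hi cells, 0.26 in Lgr5-T8hi cells, -0.47 in Lgr5+T8- cells and -0.57 in Lgr5-T8- cells. Lgr5+T8hi held the highest mean of 22 of the 32 members, and the T8- populations held the lowest mean of 27 (11 in Lgr5+T8- cells and 16 in Lgr5-T8-). No share over all genes tested was taken for these counts, so they describe the members only. A member's departure is the root mean square of its 4 differences from this pattern, in log2 units. The closest members were Fap (0.109), Lox (0.128), Mfap4 (0.167), Thy1 (0.172) and Efemp1 (0.178). The added 1 CPM narrows the differences of members near that level, such as Fap (0.819 to 4.05 CPM) and Mfap4 (0.368 to 2.91 CPM). Those furthest from it were Fmod (0.818), Dcn (0.811), Mgp (0.713), Fbn1 (0.705), Postn (0.660) and Fbln2 (0.647), all 6 among the 10 most abundant members.

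RefSeq promoter windows (GRCm38.p6, 250 bases before to 50 after a start site) were held for 21 of the 32 members, in 25 windows. The 4 printed here, 5′ to 3′, belong to the 2 members closest to the common pattern and the 2 furthest from it among those 21, so that the genes whose levels move with the list can be set beside genes that do not. Capitals mark matches, on either strand, to TATAAA (the letters of the TATA box), TGANTCA or GGAATG (the TEAD site). TGANTCA is a looser form of the AP-1 site, with any base in the middle.
Efemp1 (chr11:28852955-28853254, plus strand): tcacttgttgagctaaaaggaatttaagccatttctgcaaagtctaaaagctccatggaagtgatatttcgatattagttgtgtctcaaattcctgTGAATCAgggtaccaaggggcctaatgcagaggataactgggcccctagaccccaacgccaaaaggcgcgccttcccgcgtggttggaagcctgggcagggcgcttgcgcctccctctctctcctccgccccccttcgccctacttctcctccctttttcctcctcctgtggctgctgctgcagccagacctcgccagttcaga
Dpp4 (chr2:62412182-62412481, minus strand): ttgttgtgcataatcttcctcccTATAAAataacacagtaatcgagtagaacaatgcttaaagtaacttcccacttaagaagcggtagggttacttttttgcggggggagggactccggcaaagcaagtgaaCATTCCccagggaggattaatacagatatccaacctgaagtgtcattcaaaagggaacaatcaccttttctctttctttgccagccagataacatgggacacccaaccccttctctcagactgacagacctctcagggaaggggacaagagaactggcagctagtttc
Fmod (chr1:134037004-134037303, plus strand): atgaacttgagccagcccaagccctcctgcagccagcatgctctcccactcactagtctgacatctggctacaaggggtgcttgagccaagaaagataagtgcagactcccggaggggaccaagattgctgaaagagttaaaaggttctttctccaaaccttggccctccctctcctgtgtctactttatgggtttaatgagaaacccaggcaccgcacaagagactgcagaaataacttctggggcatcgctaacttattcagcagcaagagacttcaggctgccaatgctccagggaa
Fbn1 (chr2:125506389-125506688, minus strand): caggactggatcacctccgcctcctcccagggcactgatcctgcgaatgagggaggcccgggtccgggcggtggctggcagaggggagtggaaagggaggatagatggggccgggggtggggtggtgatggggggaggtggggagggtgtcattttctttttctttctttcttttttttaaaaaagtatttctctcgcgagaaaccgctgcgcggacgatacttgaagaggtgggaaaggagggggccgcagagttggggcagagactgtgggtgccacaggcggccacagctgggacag
Efemp1 held TGANTCA, with A in the middle, starting 154 bases before the start site (-154). Dpp4 held TATAAA at -227 and GGAATG, read on the opposite strand as CATTCC, at -118, while Fmod and Fbn1 held none of the 3. These capitals do not overlap one another. TATAAA was in 24% of the member windows, against 13.6% of all 32851 RefSeq windows, TGANTCA in 8% against 7.81%, and GGAATG in 12% against 14.7%. The E-box core CANNTG, which is not capitalised, was in 88% of the member windows against 72.3% of all, and the CArG box in 0 of the 25 against 1.63%. The members with TATAAA were Dpt, Ogn, Postn, Aspn, Dpp4 and S100a4, which include Postn, one of the members furthest from the common pattern. These matches are letters in a window and no measure of binding.

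**Figure D1:**
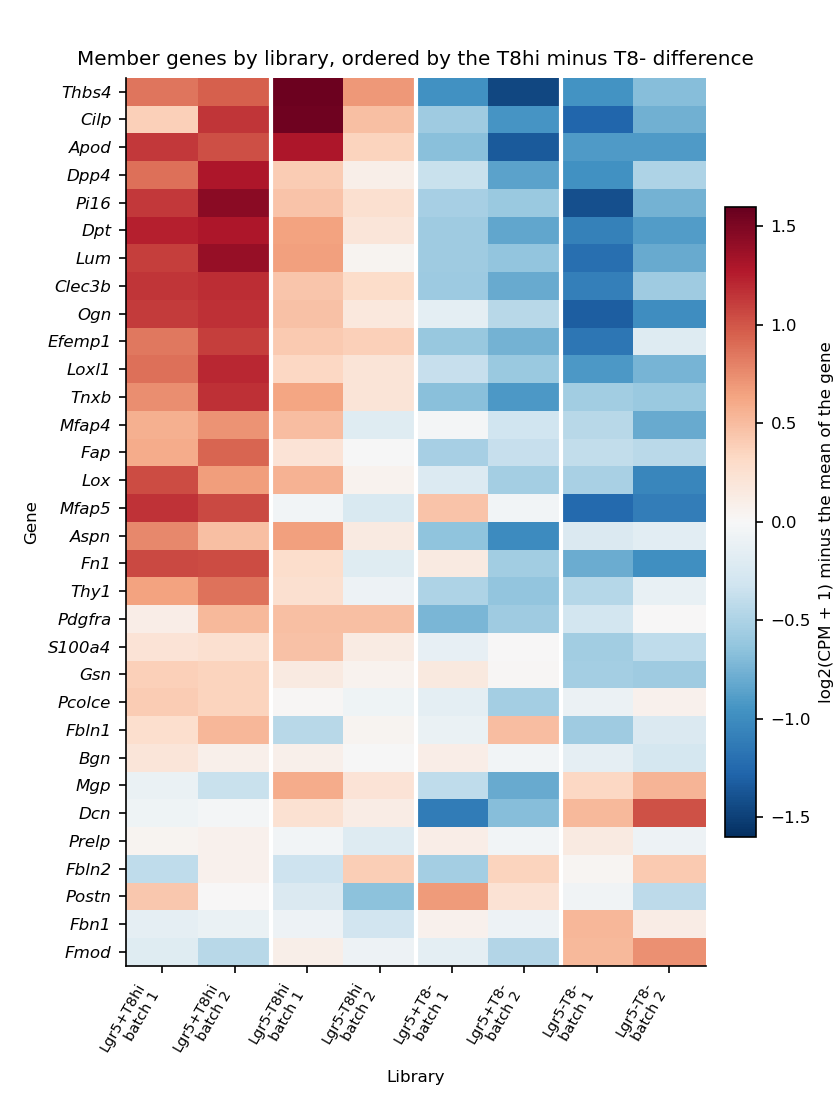
Each row is a member gene and each column a library, coloured by log2(CPM + 1) minus the gene's mean over the 8 libraries, with red higher, and rows ordered by the T8hi minus T8- difference. The upper rows are red in the 4 T8hi libraries, mostly strongest in Lgr5+T8hi. At the top, Thbs4 and Cilp had their highest mean in Lgr5-T8hi. The lowest rows (Mgp, Dcn, Prelp, Fbln2, Postn, Fbn1, Fmod) run otherwise.

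Most members were higher in T8hi than in T8- cells. By edgeR's quasi-likelihood test (adjusted p under 0.05 over all 16526 genes, mean of both T8hi populations minus mean of both T8- populations), 23 of 32 members rose and 3 fell, where 9.13% of all genes tested rose and 5.52% fell. The median log2 difference of the members was 1.20, against -0.02 over all genes tested. In 18 members all 4 T8hi libraries lay above all 4 T8- libraries, which 4.08% of all genes tested did. Fbn1 was the 1 member with all 4 T8hi libraries below, as in 2.66% of all genes. Its nearest libraries hardly differed, at 237.4 CPM (Lgr5-T8hi, batch 1) and 237.9 CPM (Lgr5+T8-, batch 2). Because the members were chosen with earlier results known, the values over all genes are set beside them as description. They are no test of the list. The members called higher were the 22 of lower RPKM (median 1.5, range 0.37 to 2.41) and Gsn. Of the 10 most abundant, only Gsn was called higher, 3 were called lower (Fmod, Fbn1 and Postn), and the median difference was 0.03. In bulk samples, more cells of a type and more RNA of these genes per cell cannot be told apart.

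**Figure D2:**
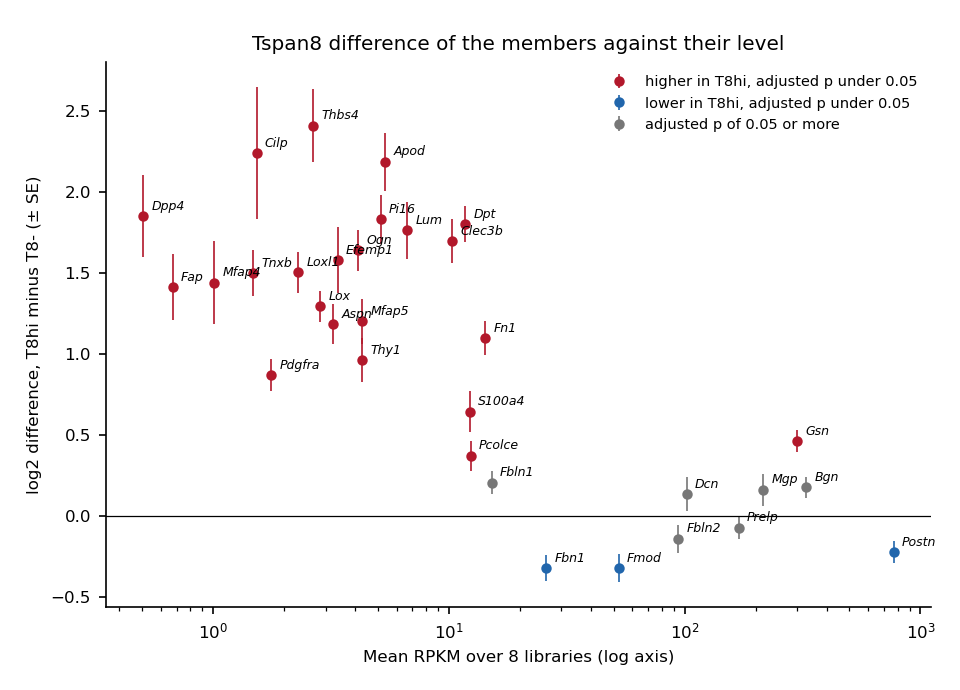
The horizontal axis is a member's mean RPKM over 8 libraries on a log scale, and the vertical axis its log2 difference T8hi minus T8- with the standard error. Members called higher lie at 14.3 RPKM or less except Gsn at 300, and the members called lower are Fmod at 52.5, Fbn1 at 25.8 and Postn at 770 RPKM.

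The 7 cell surface and cytoskeletal members (a grouping by role made with the values known) were all called higher in T8hi cells, with a median of 0.97. Beside this and the groups by role below, 9.13% of all genes tested rose and 5.52% fell. Dpp4, a membrane peptidase found on fibroblast progenitors (Entrez 13482, chromosome 2, 62330073 to 62412315), had 5.65 and 7.87 CPM in Lgr5+T8hi cells, 3.82 and 2.88 in Lgr5-T8hi cells, 1.83 and 0.997 in Lgr5+T8- cells and 0.849 and 1.58 in Lgr5-T8- cells. Every T8hi library was above every T8- library, and the log2 difference was 1.85 ± 0.25 (SE, adjusted p = 0.00103). Pi16, a peptidase inhibitor of adventitial fibroblasts, had 21.4 and 26.9 CPM in Lgr5+T8hi cells, 13.1 and 11.3 in Lgr5-T8hi cells, 6.08 and 5.78 in Lgr5+T8- cells and 2.85 and 5.04 in Lgr5-T8- cells. Its T8hi libraries also lay apart from the T8- ones (1.83 ± 0.15, adjusted p = 3.96e-05). Fap, a serine protease of activated fibroblasts, had 3 and 4.05 CPM in Lgr5+T8hi cells, 2.06 and 1.62 in Lgr5-T8hi cells, 0.819 and 1.04 in Lgr5+T8- cells and 1.00 and 0.956 in Lgr5-T8- cells, the values nearest to the common pattern. Pdgfra, Thy1 (a surface glycoprotein of fibroblasts), S100a4 (a calcium-binding protein) and the actin-severing Gsn rose by less, with log2 differences of 0.87, 0.97, 0.65 and 0.47. Pdgfra was highest in Lgr5-T8hi, at 16.1 and 16.2 CPM, against 12.2 and 16.7 CPM in Lgr5+T8hi cells, so those populations overlapped. Gsn, at 1118 and 1097 CPM in Lgr5+T8hi cells, 950 and 894 in Lgr5-T8hi cells, 961 and 871 in Lgr5+T8- cells and 590 and 578 in Lgr5-T8- cells, overlapped between Lgr5-T8hi and Lgr5+T8- and stood apart in Lgr5-T8-.

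The 7 small leucine-rich proteoglycans split. Lum (lumican), Ogn (osteoglycin) and Aspn (asporin), the 3 of lowest RPKM, rose in T8hi cells by 1.77 ± 0.18, 1.64 ± 0.13 and 1.19 ± 0.12 on the log2 scale. Fmod (fibromodulin, Entrez 14264, chromosome 1, 134037254 to 134048280) fell, and Dcn (decorin), Bgn (biglycan) and Prelp were not called by edgeR. Ogn had 20.1 and 20.9 CPM in Lgr5+T8hi cells, 12.5 and 9.91 in Lgr5-T8hi cells, 7.72 and 6.14 in Lgr5+T8- cells and 2.91 and 3.90 in Lgr5-T8- cells. The 4 populations of Ogn came in that order without overlap. Fmod had 126 and 105 CPM in Lgr5+T8hi cells, 154 and 136 in Lgr5-T8hi cells, 129 and 104 in Lgr5+T8- cells and 207 and 241 in Lgr5-T8- cells, so that its high libraries were the 2 of Lgr5-T8-, and its log2 difference between T8hi and T8- was -0.32, or -0.20 without Lgr5-T8- replicate 2. Bgn ran from 773 to 891 CPM in T8hi and from 642 to 836 CPM in T8- libraries, with a log2 difference of 0.18 ± 0.07 (adjusted p = 0.0924), and it was called higher by DESeq2 (adjusted p = 0.0491) and without Lgr5-T8- replicate 1 (adjusted p = 0.0357). Prelp ran from 529 to 635 CPM in T8hi and from 577 to 675 CPM in T8- libraries, and the groups overlapped (-0.07 ± 0.07, adjusted p = 0.578).

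These proteoglycan genes include 3 pairs that lie close together on a chromosome, and within each pair the values differed. Lum (chromosome 10, 97565501 to 97572703) rose with Tspan8 in both Lgr5 states, whereas its neighbour Dcn (97479500 to 97518163) did not. Prelp (chromosome 1, 133910304 to 133930102) had its 4 population means between 559 and 631 CPM, while Fmod, next to it, spanned 116 to 224 CPM. Aspn (chromosome 13, 49544443 to 49567565) and Ogn (49608015 to 49624501) both rose with Tspan8, but between Lgr5+T8- and Lgr5-T8- cells Ogn was higher (1.03 ± 0.19, adjusted p = 0.00548) and Aspn lower (-0.76 ± 0.19, adjusted p = 0.0254). The Ogn call was lost without Lgr5+T8- replicate 1 or Lgr5-T8- replicate 1 (adjusted p = 0.0860 and 0.0531), and the Aspn call without either Lgr5+T8- library, Lgr5+T8hi replicate 1 or Lgr5-T8- replicate 2 (-0.50 without the last). Both lie within Cenpp, which was counted too, and the sources used here do not say whether reads were counted by strand, so the split of reads there is uncertain.

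Of the 8 elastic fibre and crosslinking genes, 5 rose in T8hi cells and 1, Fbn1, fell. Lox and Loxl1, lysyl oxidases that crosslink collagen and elastin, rose by 1.30 ± 0.10 and 1.51 ± 0.13, Efemp1, a fibulin, by 1.58 ± 0.20, and the microfibril-associated Mfap4 and Mfap5 by 1.44 ± 0.25 and 1.20 ± 0.14. Lox had 19.9 and 15.1 CPM in Lgr5+T8hi cells, 13.9 and 9.59 in Lgr5-T8hi cells, 7.75 and 5.94 in Lgr5+T8- cells and 6.06 and 3.93 in Lgr5-T8- cells, with no overlap of T8hi and T8- libraries. Fbn1, which codes for fibrillin and is the microfibril's main component (Entrez 14118, chromosome 2, 125300594 to 125506485), had 228 and 235 CPM in Lgr5+T8hi cells, 237 and 204 in Lgr5-T8hi cells, 264 and 238 in Lgr5+T8- cells and 365 and 273 in Lgr5-T8- cells. The highest values were in Lgr5-T8-, and the log2 difference was -0.32 ± 0.08 (adjusted p = 0.0171). It was -0.11 ± 0.11 within Lgr5+ cells, which did not pass, and -0.53 ± 0.11 within Lgr5- cells. Fbln2 moved more with batch than with population, with 309 and 431 CPM in Lgr5+T8hi cells, 325 and 537 in Lgr5-T8hi cells, 280 and 525 in Lgr5+T8- cells and 417 and 548 in Lgr5-T8- cells. Its difference between batch 2 and batch 1 was 0.63 ± 0.09 (adjusted p = 0.000409), and that between T8hi and T8- was -0.14 ± 0.09 (adjusted p = 0.347). Fbln1 was higher in T8hi than in T8- within every Lgr5 state and batch, without passing the test (0.21 ± 0.07, adjusted p = 0.0740). Its difference was 0.26 without Lgr5-T8- replicate 1.

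Of the 10 adhesive and other matrix glycoproteins, 8 rose in T8hi cells, 1 fell (Postn) and Mgp was not called. Mgp differed by 0.17 ± 0.10, and by 0.31 without Lgr5-T8- replicate 2. The 3 largest differences of all members were here. Thbs4, a thrombospondin of tendon and muscle matrix (Entrez 21828, chromosome 13, 92751586 to 92794818), had 12.3 and 13.2 CPM in Lgr5+T8hi cells, 20.9 and 10.9 in Lgr5-T8hi cells, 2.74 and 1.67 in Lgr5+T8- cells and 2.79 and 3.57 in Lgr5-T8- cells. Its T8hi and T8- libraries lay far apart, by 2.41 ± 0.22 (adjusted p = 0.000311), and the highest was the batch 1 library of Lgr5-T8hi. Cilp, a cartilage intermediate layer protein, had 6.63 and 11.9 CPM in Lgr5+T8hi cells, 16.2 and 7.19 in Lgr5-T8hi cells, 2.96 and 2.03 in Lgr5+T8- cells and 1.42 and 2.43 in Lgr5-T8- cells. Cilp varied widely between the batches within T8hi and had the largest standard error (2.24 ± 0.41, adjusted p = 0.0213). Apod, a lipocalin, had 18.2 and 16.9 CPM in Lgr5+T8hi cells, 20.3 and 10.2 in Lgr5-T8hi cells, 4.50 and 2.43 in Lgr5+T8- cells and 3.67 and 3.64 in Lgr5-T8- cells, again apart (2.19 ± 0.18, adjusted p = 6.51e-05).

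Dpt (dermatopontin, which promotes collagen fibril assembly, Entrez 56429, chromosome 1, 164796663 to 164824274) had the smallest adjusted p of the members. It stood at 38.1 and 39.6 CPM in Lgr5+T8hi cells, 24.9 and 17.9 in Lgr5-T8hi cells, 10.2 and 8.29 in Lgr5+T8- cells and 6.82 and 7.87 in Lgr5-T8- cells. The populations followed that order without overlap (1.81 ± 0.11, adjusted p = 3e-06). Clec3b (tetranectin, a plasminogen-binding lectin), Tnxb (tenascin X) and Fn1 (fibronectin) rose by 1.70 ± 0.14, 1.5 ± 0.14 and 1.10 ± 0.11. Pcolce, which enhances procollagen cleavage, rose by 0.37 ± 0.09. Postn (periostin, an integrin-binding protein, Entrez 50706, chromosome 3, 54359267 to 54391041) had 3274 and 2456 CPM in Lgr5+T8hi cells, 2079 and 1550 in Lgr5-T8hi cells, 3910 and 2871 in Lgr5+T8- cells and 2338 and 1819 in Lgr5-T8- cells. Postn was lower in T8hi in each of the 4 pairs of the same Lgr5 state and batch, although the groups as a whole overlapped (-0.22 ± 0.07, adjusted p = 0.0466). It alone made up 29.2 to 52.1% of the summed CPM of the 32 members, so that sum followed Postn. The 22 members of lower RPKM summed to 537 and 570 CPM in Lgr5+T8hi cells, 392 and 285 in Lgr5-T8hi cells, 234 and 168 in Lgr5+T8- cells and 152 and 163 in Lgr5-T8- cells.

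The calls of the lower members were the least firm. Calls of Fmod, Fbn1 and Postn as lower in T8hi were 0 without Lgr5+T8- replicate 1, Lgr5+T8hi replicate 1 or either Lgr5-T8hi library, and 1 without Lgr5+T8hi replicate 2 (Fbn1) or Lgr5+T8- replicate 2 (Fmod). Postn also lost its call under both other count filters (adjusted p = 0.0546 and 0.0502). Among members called higher, Cilp lost its call without a count filter (adjusted p = 0.0915) and without Lgr5-T8- replicate 1 (0.209) or 2 (0.132) or Lgr5+T8- replicate 2 (0.0685). Pcolce lost its call, at adjusted p from 0.0519 to 0.0835, without any 1 T8hi library or Lgr5+T8- replicate 2. Without batch in the model 19 members were called higher and 0 lower, and Mfap4, Gsn, S100a4 and Pcolce were those lost.

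**Figure D3:**
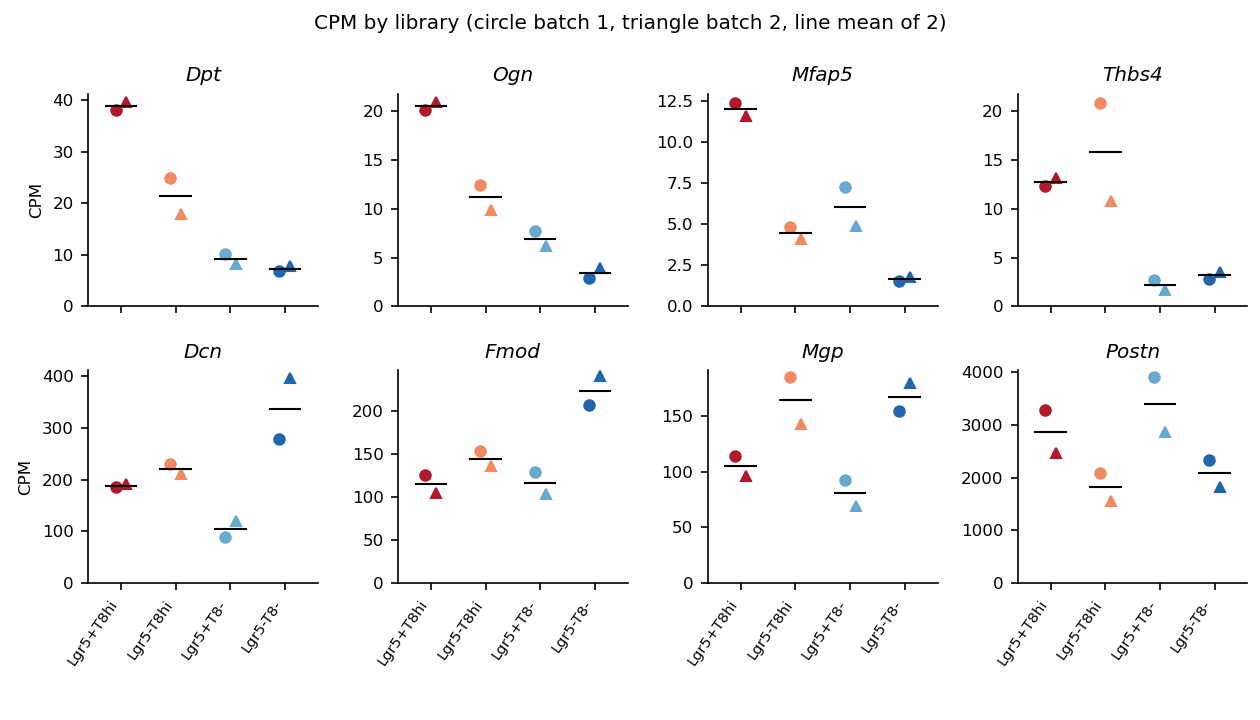
CPM of 8 members in each library, with circles for batch 1, triangles for batch 2 and a line for the mean of 2, by population. Dpt, Ogn and Thbs4 are higher in both T8hi populations, Mfap5 also follows Lgr5, and Dcn, Fmod, Mgp and Postn show other orders, with Dcn lowest at 88.8 and 121 CPM in Lgr5+T8- cells.

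The Tspan8 difference was then taken within each Lgr5 state. Between Lgr5+T8hi and Lgr5+T8- cells 21 members rose and 0 fell (7.27% and 2.17% of all genes tested), with a median log2 difference of 1.33, against -0.05 over all genes. Between Lgr5-T8hi and Lgr5-T8- cells 19 rose and 3 fell (3.7% and 3.36% of all genes), with a median of 0.94, against -0.01 over all genes. The 0 lower calls of the Lgr5+ comparison were also 0 by DESeq2 and by limma-voom, with 1 at an unadjusted p under 0.05, and 1 without Lgr5-T8- replicate 2. Both comparisons called 17 members higher, among them Thbs4 (2.54 ± 0.33 within Lgr5+, 2.28 ± 0.31 within Lgr5-), Apod (2.37 ± 0.25 and 2.01 ± 0.25), Dpt (2.08 ± 0.16 and 1.54 ± 0.16), Ogn (1.56 ± 0.17 and 1.72 ± 0.19) and Lox (1.36 ± 0.13 and 1.24 ± 0.14). Fap, Thy1 and Pcolce passed only within Lgr5+, and Gsn and S100a4 only within Lgr5-, but for none of these 5 did the test of the difference between both effects pass (adjusted p from 0.0521 to 0.387). Fmod, Fbn1 and Dcn were called lower within Lgr5-. Without Lgr5-T8- replicate 1 the calls within Lgr5- were 11 higher, and without the batch block they were 7 higher and 0 lower. Of the lower calls within Lgr5-, 1 was left without Lgr5-T8hi replicate 1 and 0 without Lgr5-T8hi replicate 2.

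Dcn (Entrez 13179) was the 1 member whose Tspan8 difference itself differed between Lgr5+ and Lgr5- cells, where 2.18% of all genes tested had a difference in this direction and 0.363% in the other. In that other direction edgeR, DESeq2 and limma-voom called 0 members, and 2 had an unadjusted p under 0.05. Dcn had 186 and 191 CPM in Lgr5+T8hi cells, against 88.8 and 121 CPM in Lgr5+T8- cells. In Lgr5- cells it had 230 and 211 CPM in Lgr5-T8hi cells, against 279 and 396 CPM in Lgr5-T8- cells. The groups of each pair did not overlap and ran in opposite directions, with log2 differences of 0.86 ± 0.15 (adjusted p = 0.00564) and -0.59 ± 0.15 (adjusted p = 0.0440) and a difference between them of 1.45 ± 0.21 (adjusted p = 0.00852). On the log2(CPM + 1) scale, that difference was 1.33 within batch 1 and 1.56 within batch 2. This call of unequal differences was lost without Lgr5+T8hi replicate 1 (1.36, adjusted p = 0.0507) and without batch in the model (1.46, adjusted p = 0.193). The call within Lgr5+ was lost without Lgr5+T8hi replicate 1 (adjusted p = 0.0539), and that within Lgr5- without either Lgr5+T8hi library, Lgr5-T8hi replicate 2 or Lgr5-T8- replicate 2 (adjusted p from 0.0616 to 0.419). It was -0.36 with the batch 2 library of Lgr5-T8hi left out and -0.39 with that of Lgr5-T8- left out. The members next in size, Thy1 (1.06 ± 0.28), Fap (1.01 ± 0.41) and Aspn (1.00 ± 0.25), did not pass. The number called depended on the setting, with 8 without Lgr5-T8- replicate 1, 2 without the batch 1 library of Lgr5-T8hi or Lgr5+T8- or the batch 2 library of Lgr5-T8-, 4 without the count filter, 3 by DESeq2 and 2 with RLE scaling. The member median was 0.37 by edgeR, against -0.03 over all genes. As plain differences of log2(CPM + 1), the member median was 0.02 within batch 1 and 0.84 within batch 2.

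**Figure D4:**
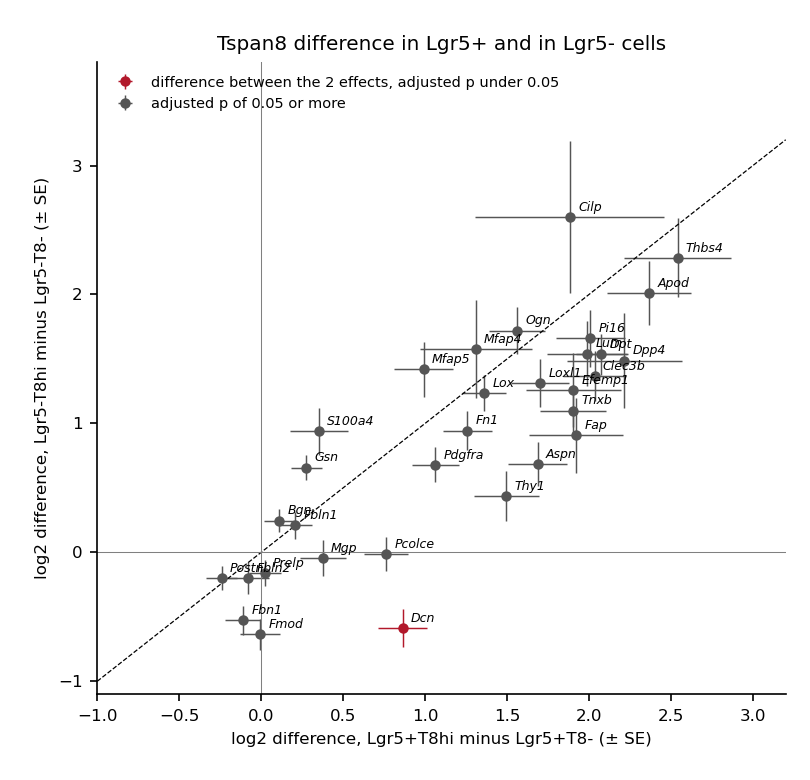
Each point is a member, with its log2 difference T8hi minus T8- in Lgr5+ cells on the horizontal axis and in Lgr5- cells on the vertical axis, bars showing the standard error and a dashed line equal differences. Most members lie at positive values on both axes, and Dcn (red), at 0.86 and -0.59, is the member whose 2 differences were called unequal.

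The Lgr5 difference was smaller and less uniform. Taking the mean of both Lgr5+ populations minus that of both Lgr5- populations, 11 members rose and 4 fell, where 4.23% and 4.86% of all genes tested did. The median log2 difference of the members was 0.25, against 0.01 over all genes, and it was 0.44 with the batch 1 library of Lgr5-T8hi left out and 0.17 with that of Lgr5-T8- left out. The 11 were Mfap5, Ogn, Fn1, Pi16, Postn, Loxl1, Fbln1, Dpt, Lox, Clec3b and Gsn, with log2 differences from 1.64 to 0.46, and the 4 that fell were Dcn, Mgp, Fmod and Pdgfra. The Lgr5 and Tspan8 differences were taken from the same 8 libraries. Tspan8 itself was higher in the Lgr5+ populations (1.00 ± 0.10, edgeR adjusted p = 5.16e-05). The Lgr5 difference therefore also holds a difference in Tspan8 level, of 0.79 within T8hi and 1.20 within T8- cells. In turn, Lgr5 transcript was higher in the T8hi populations (0.54 ± 0.08, edgeR adjusted p = 0.000536). The Tspan8 difference of the members thus also holds a difference in Lgr5 level, of 1.18 within Lgr5- cells. Within Lgr5+ cells that was -0.11 and was not called.

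Mfap5, a microfibril-associated glycoprotein (Entrez 50530, chromosome 6, 122513584 to 122529290), had the largest Lgr5 difference of the members. It had 12.4 and 11.6 CPM in Lgr5+T8hi cells, against 4.86 and 4.07 CPM in Lgr5-T8hi cells, and 7.24 and 4.86 CPM in Lgr5+T8- cells, against 1.55 and 1.8 CPM in Lgr5-T8- cells. Within each Tspan8 state Lgr5+ was higher in both batches, and the log2 difference was 1.64 ± 0.14 (adjusted p = 2.2e-05). Fn1 had 218 and 216 CPM in Lgr5+T8hi cells, against 127 and 90.7 CPM in Lgr5-T8hi cells, and 116 and 70.6 CPM in Lgr5+T8- cells, against 59.5 and 52.3 CPM in Lgr5-T8- cells (0.87 ± 0.11, adjusted p = 0.000918). Ogn, with the values given above, differed by 0.96 ± 0.13 (adjusted p = 0.000529). Mfap4 was higher in Lgr5+ cells in each pair (0.85 ± 0.26) but did not pass (adjusted p = 0.0628). Mfap4 did pass without the count filter (edgeR adjusted p = 0.0368), and differed by 1.15 without Lgr5+T8hi replicate 1. It had 2.54 and 2.91 CPM in Lgr5+T8hi cells, 2.36 and 1.09 in Lgr5-T8hi cells, 1.32 and 0.917 in Lgr5+T8- cells and 0.758 and 0.368 in Lgr5-T8- cells, and its mean of 1.01 RPKM was above only those of Fap and Dpp4. Postn was higher in Lgr5+ cells by 0.68 ± 0.07 (adjusted p = 7.22e-05), by 0.66 within T8hi and 0.70 within T8- cells.

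Mgp, matrix Gla protein, an inhibitor of calcification (Entrez 17313, chromosome 6, 136872435 to 136875823), was lower in Lgr5+ cells, as were Dcn, Fmod and Pdgfra. It had 114 and 96.0 CPM in Lgr5+T8hi cells, against 185 and 143 CPM in Lgr5-T8hi cells, and 92.5 and 69.7 CPM in Lgr5+T8- cells, against 155 and 180 CPM in Lgr5-T8- cells. All 4 Lgr5+ libraries were below all 4 Lgr5- libraries, and the log2 difference was -0.85 ± 0.10 (adjusted p = 0.000482). Dcn differed by -0.96 ± 0.11 (adjusted p = 0.000412) and Fmod by -0.64 ± 0.09 (adjusted p = 0.000711), and for both the gap was larger among T8- cells (-1.68 ± 0.15 and -0.95 ± 0.12) than among T8hi cells (-0.23 ± 0.15 and -0.33 ± 0.12). For Fmod that inequality did not pass the test (0.63 ± 0.17, adjusted p = 0.101). Pdgfra differed by -0.37 ± 0.10 (adjusted p = 0.0355). Thbs4, the member with the fourth lowest Lgr5 difference (-0.40 ± 0.22), did not pass (adjusted p = 0.358). Its difference was -0.60 without Lgr5-T8hi replicate 2.

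Among T8hi cells, 10 members were higher in Lgr5+ and 1, Mgp, lower (2.29% and 1.05% of all genes tested, member median 0.57). Among T8- cells 6 were higher and 5 lower (3.81% and 5.05% of all genes, member median 0.20). Fbln1, Mfap5, Ogn, Postn and Fn1 were called higher in both. The T8hi count rested on single libraries: leaving out Lgr5+T8hi replicate 1 gave 1 and Lgr5+T8hi replicate 2 gave 0, and it was 4 and 3 without Lgr5-T8hi replicate 1 and 2, and 15 without either Lgr5-T8- library. Its lower call of Mgp was lost without either Lgr5+T8hi library or Lgr5-T8hi replicate 1. Without batch in the model 0 members were called in either direction among T8hi cells, and 1 higher and 2 lower among T8- cells. Without Lgr5+T8- replicate 2 the T8- lower calls were 3. For the Lgr5 difference over both Tspan8 states, the fit without batch called 2 members higher (Mfap5 and Ogn) and 2 lower (Dcn and Mgp). Pdgfra lost its call with DESeq2 (adjusted p = 0.0598) and without any 1 library of Lgr5+T8hi or Lgr5+T8- or Lgr5-T8hi replicate 1. Clec3b, at 0.50 ± 0.14 (adjusted p = 0.0419), lost its call with a filter of 1 CPM in 4 libraries (adjusted p = 0.0509) and without any 1 library of T8hi cells, Lgr5+T8- replicate 1 or Lgr5-T8- replicate 1 (0.33 without the last). Calls were also lost for Loxl1 without Lgr5+T8hi replicate 2 or Lgr5+T8- replicate 1, and Pi16 without Lgr5+T8hi replicate 2. Lum, at 0.69 (adjusted p = 0.0508), was called higher in Lgr5+ cells with RLE scaling (adjusted p = 0.0498), by DESeq2 (0.00137) and by limma-voom (0.0238), and without either Lgr5-T8hi library or Lgr5-T8- replicate 2.

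The batches were balanced over the populations. Between batch 2 and batch 1, 2 members were higher (Fbln2 and Fbln1) and 3 lower (Lox, Postn and Fn1), where 16% and 16.9% of all genes tested were. The lower calls were 5 without Lgr5+T8hi replicate 1 and 6 without Lgr5+T8hi replicate 2 or either Lgr5-T8- library. Within batch 1 the median Tspan8 difference of the members was 0.94 and within batch 2 it was 0.89, on the log2(CPM + 1) scale, with the same sign in both for 31 of 32 members. The median Lgr5 difference was 0.18 and 0.29, with the same sign for 28. Signs matched for 29 and 30 members for Tspan8 within Lgr5+ and Lgr5-, and for 26 for Lgr5 within T8hi. Among T8- cells the Lgr5 medians were 0.36 and -0.02, with the same sign for 25. The inequality of Tspan8 differences had the same sign for 17. No share over all genes tested was taken for these counts.

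Other matrix and fibroblast genes, in lists also chosen with earlier results of these data known, were read from the same fit. Of all genes tested, 9.13% rose in T8hi cells and 5.52% fell. Of 15 interstitial collagens, 9 rose in T8hi cells and 1 fell, with Col5a3 (1.97 ± 0.23) and Col1a2 (1.56 ± 0.09) highest and Col6a6 (-0.43 ± 0.11) lowest. Of 14 other elastic fibre genes 7 rose and 3 fell, with the crosslinking enzyme gene Loxl2 (1.39 ± 0.17) and Emilin2 (1.32 ± 0.16) at one end and Fbn2 (-1.31 ± 0.19) at the other. Of 5 other leucine-rich proteoglycans tested, of 8 in the tables, 3 rose, led by Omd (2.66 ± 0.47), which lies near Ogn. Of 24 other matricellular genes 11 rose and 5 fell, with Pcolce2 (2.14 ± 0.26) and vitronectin, Vtn (1.59 ± 0.16), highest and tenascin C, Tnc (-0.86 ± 0.11), lowest. Of 19 other fibroblast genes tested, 13 rose and 0 fell (0 also by DESeq2 and limma-voom, 1 at an unadjusted p under 0.05), with Htra3 (1.76 ± 0.15) and Scara5 (1.70 ± 0.20) highest and the chemokine gene Cxcl12 at -0.17 ± 0.07, which did not pass. The members' median of 1.20 stood beside list medians of 0.97, 0.22, 0.99, 0.52 and 0.59 in the same order. Again in that order, 6, 3, 0, 5 and 6 genes rose within Lgr5- cells (3.7% of all genes tested). There 1, 2, 0, 3 and 0 fell (3.36% of all genes), and the medians were 0.70, 0.11, 0.69, 0.11 and 0.33. DESeq2 and limma-voom also called 0 of the other leucine-rich proteoglycans higher there, with 4 at an unadjusted p under 0.05. Within Lgr5+ cells 8, 6, 3, 12 and 13 rose (7.27% of all genes).

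**Figure D5:**
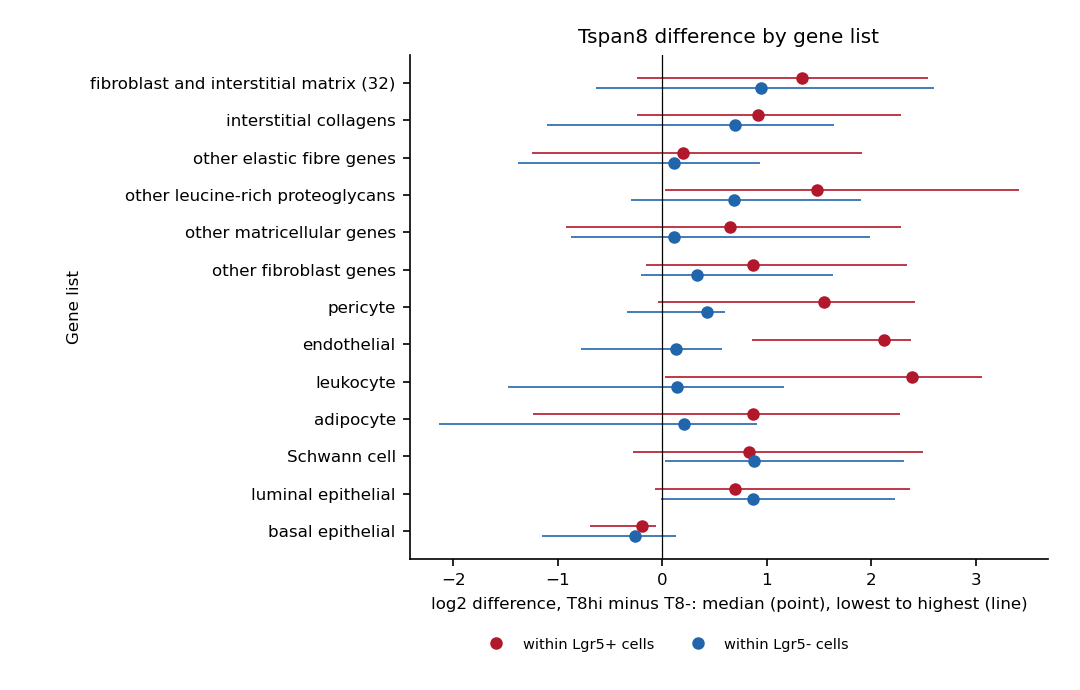
For each gene list, the median (point) and the lowest to highest member (line) of the log2 difference T8hi minus T8- are drawn within Lgr5+ cells (red, above) and within Lgr5- cells (blue, below). The 32 members have medians of 1.33 and 0.94, while the endothelial and leukocyte lists have medians of 2.12 and 2.39 within Lgr5+ and 0.13 and 0.14 within Lgr5- cells.

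Markers of other cell types moved as well, where 9.13% of all genes tested rose in T8hi cells and 5.52% fell. In T8hi against T8- cells, 8 of 12 endothelial, 8 of 10 pericyte, 7 of 13 leukocyte, 10 of 15 luminal epithelial, 4 of 10 Schwann cell and 3 of 7 adipocyte genes tested rose, 2 adipocyte genes fell, and 0 of 15 basal epithelial genes rose while 9 fell (0 higher also by DESeq2, limma-voom and at an unadjusted p under 0.05). Within Lgr5+ cells 11 endothelial, 8 pericyte and 10 leukocyte genes rose, as did 7.27% of all genes tested. Within Lgr5- cells 0 of each did by edgeR, where 3.7% of all genes tested rose. There 19 of the 32 members, 6 of 19 other fibroblast, 10 of 15 luminal epithelial and 4 of 10 Schwann cell genes rose. DESeq2 and limma-voom also called 10 luminal epithelial genes higher within Lgr5-, and 2 and 4 Schwann cell genes. Within Lgr5+ cells 8 luminal epithelial and 2 Schwann cell genes rose. At an unadjusted p under 0.05, 0 endothelial, 3 pericyte and 1 leukocyte genes were higher within Lgr5-, DESeq2 called 0 of these 3 lists and limma-voom called 1, a pericyte gene. The summed endothelial list stood at 617 and 694 CPM in Lgr5+T8hi cells, 213 and 392 in Lgr5-T8hi cells, 206 and 152 in Lgr5+T8- cells and 266 and 262 in Lgr5-T8- cells. The summed leukocyte list stood at 45.6 and 64.2 CPM in Lgr5+T8hi cells, 28.9 and 29.0 in Lgr5-T8hi cells, 22.5 and 19.3 in Lgr5+T8- cells and 29.3 and 23.9 in Lgr5-T8- cells. The summed luminal epithelial list stood at 2543 and 1899 CPM in Lgr5+T8hi cells, 2330 and 1677 in Lgr5-T8hi cells, 2268 and 1474 in Lgr5+T8- cells and 1576 and 1216 in Lgr5-T8- cells. No gene of any marker list was at 0 in all 8 libraries. At least 1 CPM in every library was reached by 12 of 12 endothelial, 8 of 10 pericyte, 5 of 14 leukocyte and 14 of 15 luminal epithelial genes. The same level was reached by 4 of 10 adipocyte, 6 of 10 Schwann cell and 15 of 15 basal epithelial genes. The part of these cell types in the members' differences was not tested.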

How the data were processed

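In each of 8 tables the authors deposited 1 count of reads per Entrez gene beside a gene length, and the counts were whole numbers with no normalization. Tools named in the submitters' processing notes are limma 3.24.14, edgeR 3.10.2, featureCounts and CASAVA 1.8.2, with the genome build mm10 (GRCm38). The aligner and the use of strand are not given in the sources used here. RefSeq for GRCm38.p6 gave symbols and coordinates by Entrez identifier, for 25260 of 27164 genes and all 32 members. Identifiers without a symbol held 2.56 to 2.86% of a library's counts.

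All genes were tested in 1 fit with edgeR 4.0.16 (R 4.3.3): robust quasi-likelihood F-test, two-sided, TMM, filterByExpr with a minimum count of 10, population plus batch, 3 residual degrees of freedom. The filter left out 10638 genes. Benjamini-Hochberg adjustment was made over all 16526 genes of a comparison, with a threshold of 0.05. The batch in the labels equals the replicate number, and same-numbered libraries deviated together (r from 0.415 to 0.550 over 6 pairs of populations), so batch was kept in the model. Replicates differed beyond sampling noise (chi-square per degree of freedom 38.3 to 60.9). RPKM used the deposited length, and the pattern measure a pseudocount of 1 CPM. The test was run on simulated counts drawn from its own fitted means, batch term and spread. Such counts cannot show whether the libraries are independent. Alternatives were a fit without batch, RLE scaling, limma-voom (limma 3.58.1), DESeq2 1.42.0, no filter, at least 1 CPM in 4 libraries, total-count scaling, a pseudocount of 0.5, values within each batch and leaving out each library. After leaving out a library, its population had 1 library, assumed to vary like the others.

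The members, gene lists and roles were chosen with earlier results of these data known. Values by library were given for members of highest level, largest departure or largest and smallest Tspan8 and Lgr5 differences, and for others chosen after their values were seen, and from other lists for the 2 highest and the 1 lowest difference.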

Additional observations from a re-analysis of the deposited data

Results flagged for a closer look

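Dcn was singled out because its Tspan8 difference was unequal in Lgr5+ and Lgr5- cells, by the test of that inequality itself. The difference between both effects was 1.45 ± 0.21 on the log2 scale (edgeR adjusted p = 0.00852), from 0.86 ± 0.15 in Lgr5+ cells and -0.59 ± 0.15 in Lgr5- cells (-0.36 with the batch 2 library of Lgr5-T8hi left out and -0.39 with that of Lgr5-T8- left out). Dcn was at 186 and 191 CPM in Lgr5+T8hi, against 88.8 and 121 CPM in Lgr5+T8-, and at 230 and 211 CPM in Lgr5-T8hi, against 279 and 396 CPM in Lgr5-T8-. The call did not hold without Lgr5+T8hi replicate 1 or without batch in the model. In the same comparison 3 of 12 endothelial, 4 of 10 pericyte and 6 of 13 leukocyte genes were called in that direction by edgeR. Of all genes tested 2.18% were. DESeq2 called 8, 5 and 4 of them and limma-voom 10, 5 and 4. Their part in the Dcn values was not tested.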

How the results depend on the processing

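Among the members, 107 called values were recomputed under 14 alternatives (1498 pairs of value and setting): 1304 kept their call and direction, 194 lost the call, and 0 turned. The fit with no replicate block lost 58 of them, the most of any setting, and RLE scaling 0. With no replicate block, members called higher and lower were 19 and 0 for Tspan8, 2 and 2 for Lgr5, 0 and 0 for the inequality of Tspan8 differences, 16 and 0 for Tspan8 within Lgr5+, 7 and 0 within Lgr5-, 0 and 0 for Lgr5 within T8hi, and 1 and 2 within T8-. For the inequality, RLE scaling called 2 members, no count filter 4 and DESeq2 3. Leaving out 1 library gave 0 to 3 lower calls for Tspan8, 0 to 8 for the inequality, 0 to 1 lower within Lgr5+, 11 to 20 higher and 0 to 3 lower within Lgr5-, 0 to 15 higher and 0 to 2 lower for Lgr5 within T8hi, 3 to 5 lower within T8-, and 2 to 6 lower between batches. The values that changed sign on leaving out 1 library had no call, with ranges of -0.12 to 0.0011 for Prelp with Tspan8 and, with Lgr5, -0.317 to 0.488 for Cilp, -0.0725 to 0.269 for Apod, -0.0831 to 0.134 for Pcolce and -0.025 to 0.336 for Tnxb. Total-count scaling and a pseudocount of 0.5 left the same 6 members furthest from the common pattern. Lgr5+T8hi held the highest value of 22 members under total-count scaling, 20 within batch 1 and 26 within batch 2. For these settings the cause of a change was not tested, beyond the loss of a library or of the batch term itself.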
